A study of Mus musculus with 4 samples.

Results

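The HoxC and HoxB clusters of homeobox genes were compared for Pitx1 ChIP-seq peaks in embryonic hindlimb buds of mice (strain ICR, wild type, stage E11.5). Each cluster was given a window of 700 kb in build mm9, chr15:102500000-103200000 for HoxC and chr11:95900000-96600000 for HoxB, and a peak belonged to a window when its midpoint lay inside. Members were chosen by position, and a region was counted as replicated when peaks of both ChIP libraries overlapped by at least 1 bp. The windows held 18 of the 10274 replicated regions of the whole genome, 12 around HoxC and 6 around HoxB. They held 22 of 14753 peaks in replicate 1 and 68 of 25027 peaks in replicate 2. The series has 4 libraries of 1 kind of tissue, 2 of Pitx1 ChIP and 2 of input chromatin that was not immunoprecipitated. All carry the same genotype, strain and age, so there is no second condition. Each ChIP library was built from 3 pooled ChIPs, and no label says whether the replicates came from separate litters, so the difference between them may be technical. The input libraries had no peak list here, and pull-down of chromatin without regard to Pitx1 was not tested. Read depth is unknown.

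Pitx1 is a homeodomain transcription factor made in the hindlimb bud and not in the forelimb bud, and it helps to give the hindlimb its identity. Hox genes code for homeodomain factors that mark position along the body, and in each cluster the gene order on the chromosome follows the order of their domains along the body. Hoxc9, Hoxc10 and Hoxc11, from the 5′ part of the HoxC cluster, are active in the hindlimb and largely silent in the forelimb. Hoxb9 acts with the other group 9 Hox genes in the flank and early limb field, and Hoxb13 is the most posterior gene of the HoxB cluster, active in the tail region. In the RefSeq gene order (GRCm38.p6, used for names and order alone) all 9 HoxC genes matched and ran from Hoxc13 through Hoxc12, Hoxc11, Hoxc10 and Hoxc9 to Hoxc4, with Calcoco1 and Smug1 as the neighbouring protein-coding genes. All 10 HoxB genes matched and ran from Hoxb13 and Hoxb9 to Hoxb1, between Ttll6 and Skap1. The genes of each cluster lie in an approximate mm9 span, 102.75 to 102.87 Mb on chromosome 15 (120 kb) for HoxC and 96.05 to 96.23 Mb on chromosome 11 (180 kb) for HoxB. Single genes were not placed in mm9, so peaks are described by cluster and position and are not assigned to Hoxc9, Hoxc10, Hoxc11, Hoxb9 or Hoxb13.

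The HoxC window was dense in Pitx1 regions, and the HoxB window less clearly so. Around HoxC there were 12 replicated regions, or 17.1 per Mb (95% exact Poisson interval 8.86 to 29.9), where the autosomal rate of 4.11 per Mb would give 2.88. This was 4.17 times the density of the other autosomal sequence (exact interval 2.16 to 7.29; exact binomial test, adjusted p = 0.000229). Of the autosomal tiles of 700 kb, 2.73% (96 of 3515) held as many. The density ratio stayed past the threshold under each of the 10 alternatives run for it, at 3.41 to 7.43 times. Around HoxB the 6 replicated regions came to 8.57 per Mb (3.15 to 18.7), 2.09 times the other autosomal sequence (0.765 to 4.54; exact binomial test, adjusted p = 0.152), and 16% of autosomal tiles held as many. With replicate 2 peaks alone the HoxB ratio was 2.28 and passed (exact binomial test, adjusted p = 0.00418), and with replicate 1 peaks alone it was 1.7 and did not (exact binomial test, adjusted p = 0.234). The value for replicated regions did not pass the test, and its interval holds both no excess and an excess of the HoxC size.

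Set against each other, the clusters differed by 2 times in replicated regions, with an exact interval of 0.695 to 6.49 (exact binomial test, adjusted p = 0.377). Replicate 1 alone gave 15 peaks around HoxC and 7 around HoxB, a ratio of 2.14 (exact binomial test, adjusted p = 0.234). Replicate 2 alone gave 52 and 16, a ratio of 3.25 (exact binomial test, adjusted p = 2.35e-05). Of autosomal tiles of 700 kb, 10.2% held as many replicate 2 peaks as the HoxB window. So HoxC held more peaks than HoxB in both libraries, and the difference passed the test in replicate 2 alone. The ratio was 1.52 times as large in replicate 2 as in replicate 1, a difference that did not pass its own test (Fisher's exact test, adjusted p = 0.683). With the borders of both windows moved inward by 100 kb the ratio of replicated regions was 1.17.

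**Figure D1:**
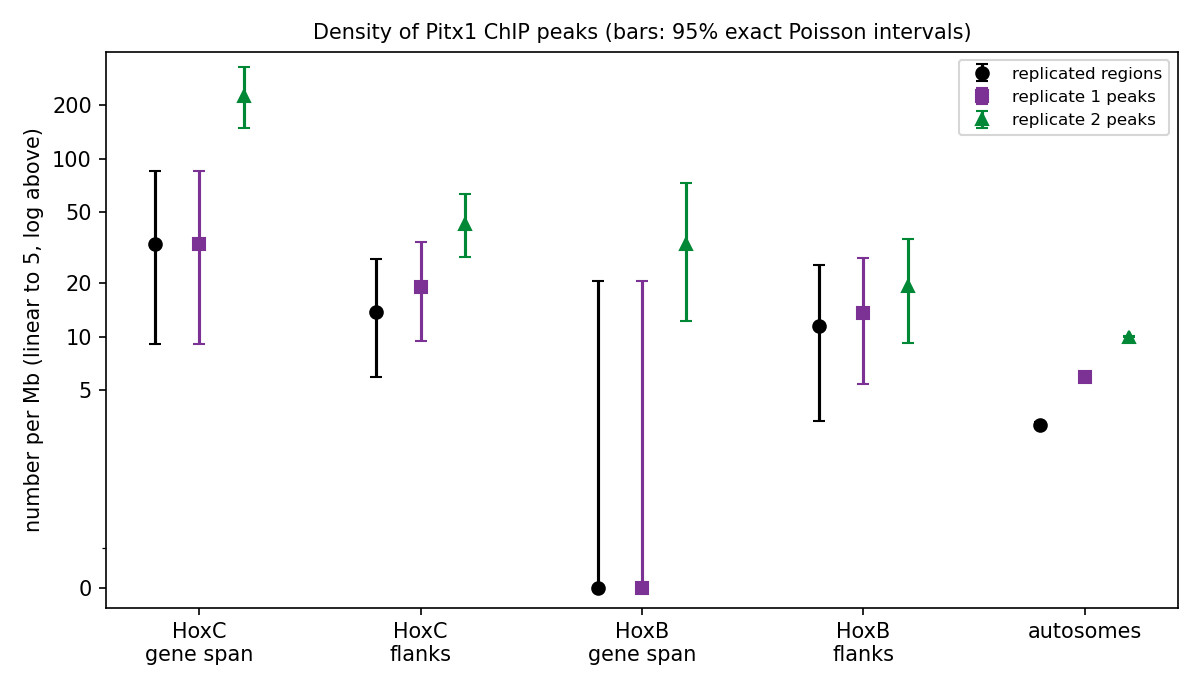
Number of replicated Pitx1 regions, replicate 1 peaks and replicate 2 peaks per Mb (vertical axis, linear to 5 and logarithmic above) in the gene span and flanks of each Hox window and on all autosomes, with 95% exact Poisson intervals as bars. The replicate 2 value of the HoxC gene span, 225 per Mb, is the highest point, and the HoxB gene span has no replicated region.

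Within the HoxC gene span 4 regions recurred, and 2 of them ranked high among the 10274 replicated regions by summed rank, at numbers 247 and 847. A cut by summed rank that took in 10.1% of autosomal regions took in these 2 of the 12 HoxC regions (16.7%). It also took in 1 of the 6 HoxB regions (16.7%). The strongest region of the HoxC span was chr15:102789816-102791595, which scored 414.39 in replicate 1 (rank 367) and 775.38 in replicate 2 (rank 321). Scores come from the authors' peak caller and serve here to order peaks within their own list. Only 1.57 kb away between midpoints lay a weak neighbour, chr15:102791890-102792655, with scores of 61.44 and 64.28. The third region, chr15:102802130-102803045, scored 92.96 and 147.20, near the middle of the replicate 1 list and in the upper part of the replicate 2 list. The fourth, chr15:102844617-102845480, scored 188.34 in replicate 1 (rank 1933) and 754.77 in replicate 2 (rank 353). The first 3 lay between 40.7 and 52.6 kb from the start of the span and the fourth at 95 kb, so the outer parts of the cluster held none. The span had 33.3 replicated regions per Mb (9.08 to 85.3) against 13.8 per Mb in the rest of its window, a ratio of 2.42 (0.533 to 9.02; exact binomial test, adjusted p = 0.234). For all replicate 2 peaks, recurring or not, the ratio was 5.22 (27 in the span, 25 in the flanks) and passed (exact binomial test, adjusted p = 2.77e-08). Of these 27 peaks, 23 did not recur. For all replicate 1 peaks it was 1.76 and did not pass (exact binomial test, adjusted p = 0.307). Of autosomal tiles of 120 kb, 1.8% held as many as 4 replicated regions.

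The other 8 HoxC regions lay outside the approximate gene span, and 7 of them were on the Hoxc4 side as RefSeq orders the cluster. That side measured 330 kb and had 21.2 replicated regions per Mb, while the 250 kb on the other side had 1 region, or 4 per Mb. The lone region of the lower side, chr15:102582304-102583053, was 167 kb from the span and scored 118.59 and 219.15. Nearest on the upper side, 76.0 kb away, was chr15:102945345-102946602, where 1 replicate 1 peak (89.81) met a pair of replicate 2 peaks, the stronger at 60.57. A group of 4 regions stood 250 to 265 kb beyond the span, within 16.3 kb from 103119852 to 103136186. Their replicate 1 scores were 108.46, 104.96, 106.25 and 166.89, in order along the chromosome, and their replicate 2 scores were 172.23, 90.55, 111.37 and 153.69. These are middle to upper scores in both lists, at percentiles of 52.2 to 84.0. The remaining pair, chr15:103053607-103054347 and chr15:103087856-103088291, scored 81.01 and 66.07 in replicate 1 and 96.91 and 106.07 in replicate 2.

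**Figure D2:**
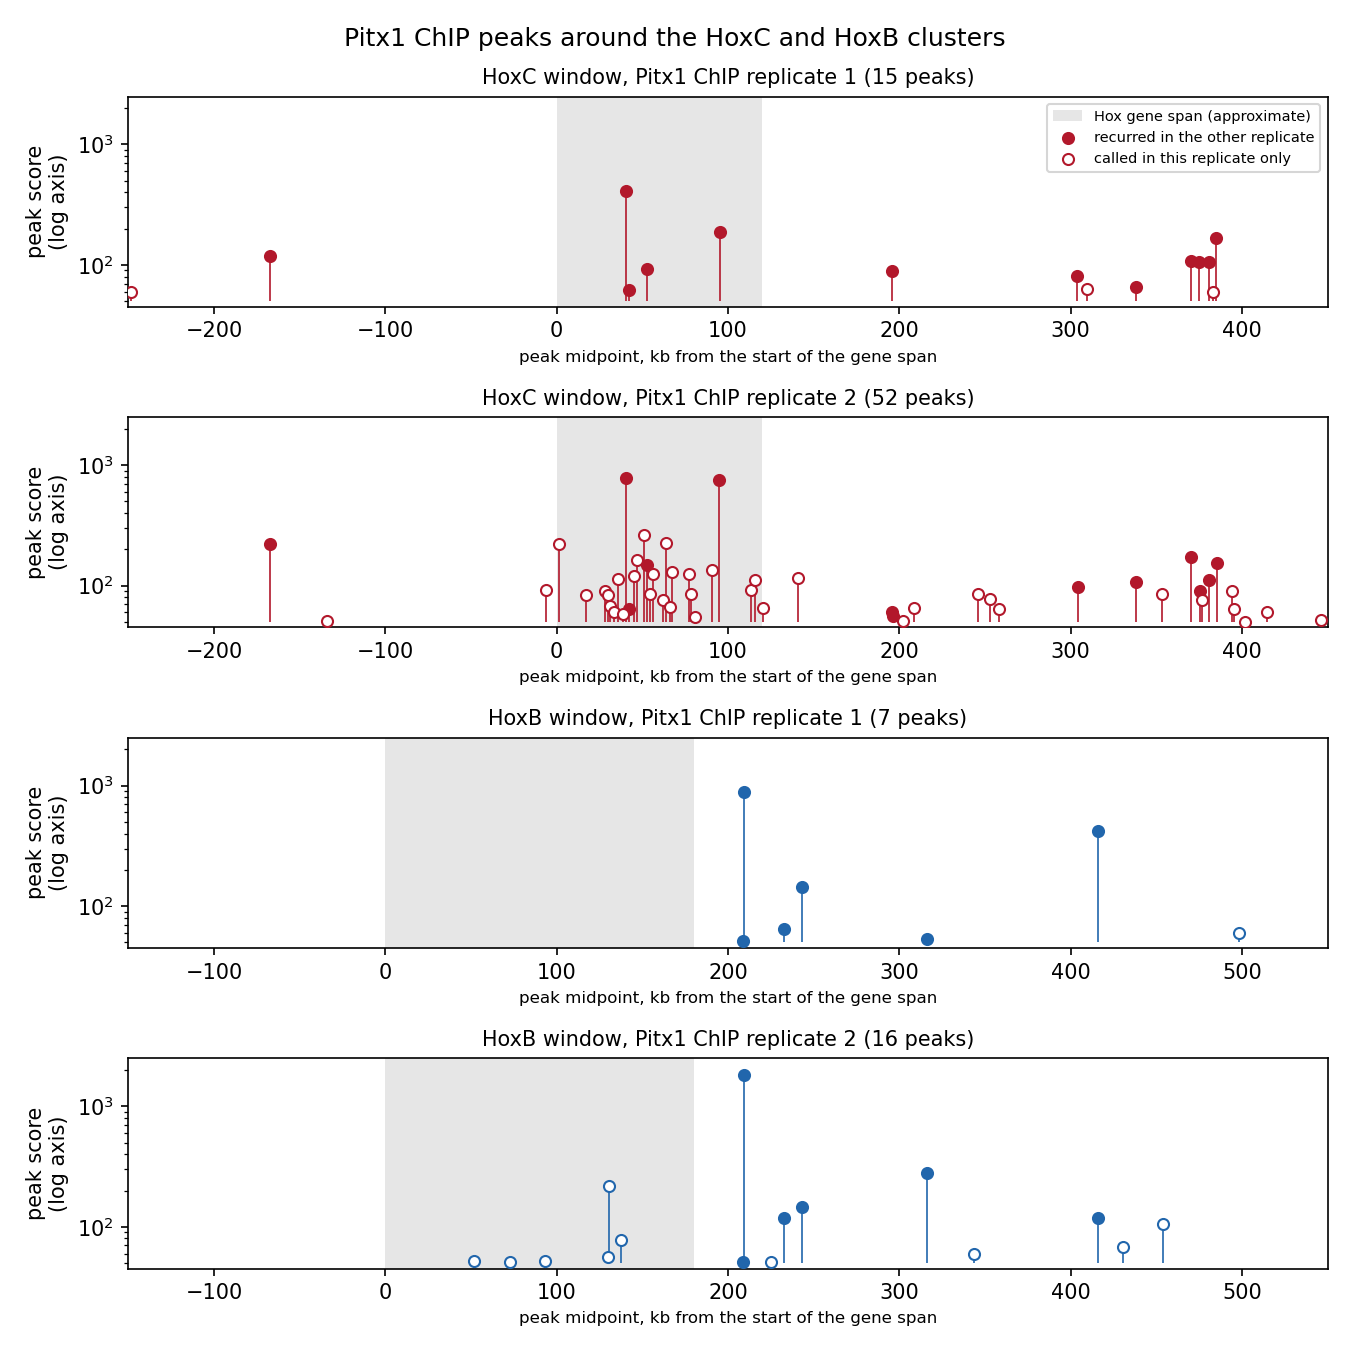
Peak score (vertical axis, logarithmic) of each Pitx1 ChIP peak against its distance in kb from the start of the gene span, for both windows and both replicates. Filled points recurred in the other replicate and open points did not, and grey marks the approximate gene span. In the HoxC span replicate 2 has 27 peaks and replicate 1 has 4. In the HoxB span replicate 1 has 0, and the strongest peaks of that window lie beyond the span.

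In replicate 2, peaks filled the HoxC gene span in a way that replicate 1 did not show. There were 27 replicate 2 peaks in these 120 kb (225 per Mb, 148 to 327) against 4 in replicate 1 (33.3 per Mb), and all 4 of the latter recurred. Replicate 1 was also denser there than over the autosomes, where it had 5.9 peaks per Mb. Its 4 peaks were matched or exceeded in 3.45% of autosomal tiles of 120 kb. Replicate 2 peaks stood a median of 2.24 kb apart and covered 15.7 kb, or 13.1% of the span, whereas replicate 2 peaks covered 0.517% of the autosomes. Their density was 22.5 times that of the other autosomal sequence (14.8 to 32.7; exact binomial test, adjusted p = 7.79e-26) and 5.22 times that of the flanks of the same window (2.92 to 9.38; exact binomial test, adjusted p = 1.05e-07). Both comparisons were chosen after their values were seen, and the p-values cover counting error only. Of autosomal tiles of 120 kb, 0% reached 27 replicate 2 peaks, with 26 in the fullest of 20556 tiles. For the whole HoxC window with 52 replicate 2 peaks the share of tiles was also 0%, with 48 in the fullest of 3515. Tiles start at fixed positions, whereas the HoxC window and span were placed around the cluster. Windows of 700 kb were not started at every peak, so the rank of the whole window without a fixed grid is unknown. When windows of 120 kb were instead started at every peak, the one at HoxC held 28 and came second, after a stretch of chromosome 6 from 52108429 to 52228428 with 31. In that stretch replicate 1 had 12 peaks, against 4 in the HoxC one, and 11 regions were replicated, against 4. Dense replicate 2 peaks were thus not particular to HoxC. Genes of that stretch were not placed in mm9.

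The replicate 2 peaks of the HoxC gene span were not packed at one point. Along the span, in steps of 20 kb from the lower end, which is the Hoxc13 end in the RefSeq order, they numbered 2, 6, 8, 6, 3 and 2. Replicate 1 had 3 peaks in the third step, 1 in the fifth and 0 in the others. The 23 replicate 2 peaks without a replicate 1 partner scored from 54.7 to 263 with a median of 92.4, against a median of 71.6 for all such autosomal peaks. They were 0.334 to 38.3 kb from the nearest replicate 1 peak (median 9.41 kb), with 8 of them within 5 kb and the other 15 farther away. The strongest was chr15:102800614-102801795, which scored 262.83 (rank 2748, percentile 89.0) and was 0.334 kb from a replicate 1 peak.

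**Figure D3:**
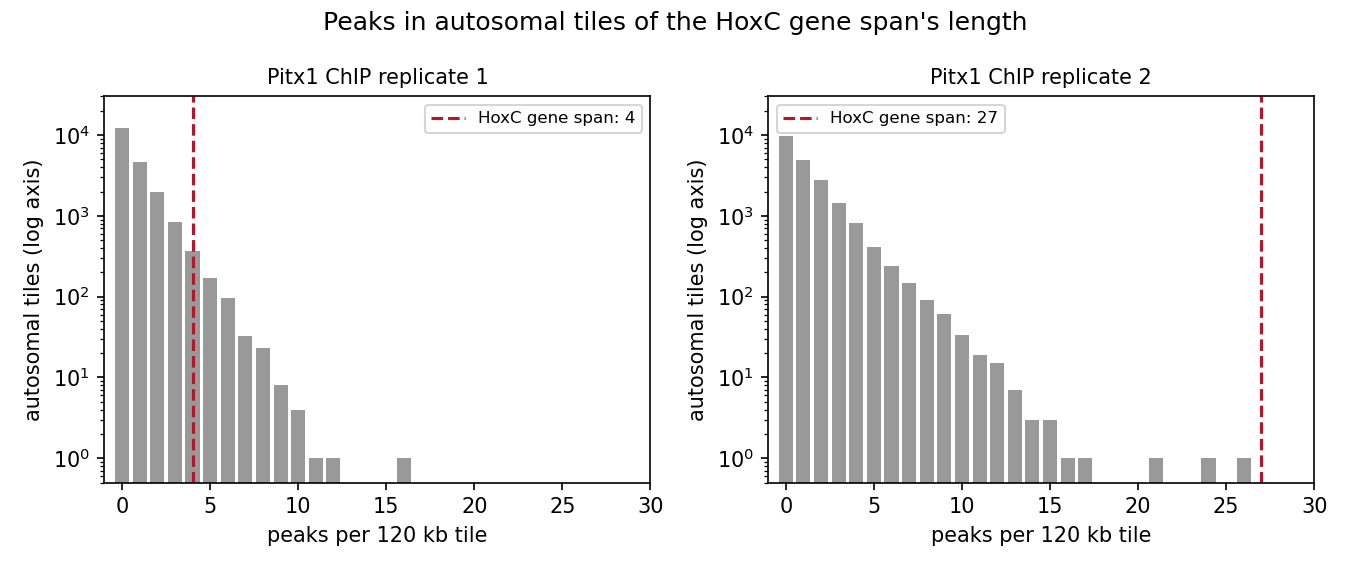
Number of autosomal tiles of 120 kb (vertical axis, logarithmic) by the number of peaks they hold, for replicate 1 and replicate 2, with a dashed line at the count of the HoxC gene span. The line is at 4 for replicate 1, within the range of the tiles, and at 27 for replicate 2, above the fullest tile at 26.

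Of the 27 replicate 2 peaks in the HoxC gene span 4 recurred (14.8%, 95% Wilson interval 5.92 to 32.5%). With 4 replicate 1 peaks there, all of them recurring, this share follows from the 2 counts and is no separate result. Against the flanks of the same window the share differed by -21.2 percentage points, which did not pass the test (Fisher's exact test, adjusted p = 0.212). Compared directly, the odds of a peak lying in the HoxC span were 3.98 times as high in replicate 2 as in replicate 1 (Fisher's exact test, adjusted p = 0.0145). With the best 50% of each list they were 3.14 times, which did not pass (Fisher's exact test, adjusted p = 0.188). With equal numbers of best peaks they were 5 times and passed (Fisher's exact test, adjusted p = 0.00417). They also passed with span borders moved inward or outward by 20 kb, at 3.39 and 4.27 times (Fisher's exact test, adjusted p = 0.0307 and 0.00394). These comparisons of replicate 2 in the gene spans were chosen after their values were seen. Depth and antibody efficiency of the libraries are not known, and their part was not tested.

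Over the whole windows, replicate 1 peaks recurred at 80% around HoxC (12 of 15, Wilson interval 54.8 to 93.0%) and 85.7% around HoxB (6 of 7, 48.7 to 97.4%), with 69.9% over the autosomes. Neither difference from the other autosomal peaks passed Fisher's exact test (adjusted p = 0.683 and 0.763). Replicate 2 peaks recurred at 25% around HoxC (13 of 52, 15.2 to 38.2%) and 37.5% around HoxB (6 of 16, 18.5 to 61.4%), with 42.6% over the autosomes. The HoxC share was lower than that of the other autosomal peaks (Fisher's exact test, adjusted p = 0.0261), and the HoxB share did not differ past the threshold (Fisher's exact test, adjusted p = 0.848). HoxC and HoxB did not differ past the threshold from each other (Fisher's exact test, adjusted p = 0.479). With 15 replicate 1 peaks in the HoxC window, the share of its 52 replicate 2 peaks was also limited by the counts. The HoxC call was lost with the best 50% of each list, with reciprocal overlap and with borders moved outward by 100 kb. A recurring share as low as around HoxC was found in 13.2% of the 954 autosomal tiles of 700 kb with at least 10 replicate 2 peaks.

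The approximate HoxB gene span had no replicated Pitx1 region. Replicate 1 had 0 peaks in the 180 kb of the HoxB span, which allows up to 20.5 per Mb by the exact Poisson interval. At autosomal rates 1.06 replicate 1 peaks and 0.74 replicated regions would fall there. Of autosomal tiles of 180 kb, 49.9% held 0 replicate 1 peaks and 60.1% held 0 replicated regions, so a stretch of this length without a replicated region was common. Replicate 2 had 6 peaks in the HoxB span, and 0 of 6 recurred. With 0 replicate 1 peaks there, this share follows from the counts and is no separate result. The 6 peaks scored low, with a median of 54.4 in a list that starts at 50.01. An exception was chr11:96180453-96181050 at 217.41 (rank 3660), which was 77.1 kb from the nearest replicate 1 peak. The replicate 2 density, 33.3 per Mb, was 3.33 times that of the other autosomal sequence (1.22 to 7.24; exact binomial test, adjusted p = 0.0261), and 6.97% of autosomal tiles held as many. This excess did not last in stronger peaks, at 1.11 times with the best 50% of each list (exact binomial test, adjusted p = 0.753) and 0.94 times with equal numbers of best peaks (exact binomial test, adjusted p = 1). The HoxC gene span had 6.75 times the replicate 2 density of the HoxB gene span (2.73 to 20; exact binomial test, adjusted p = 7.15e-06). The ratio was 24 (3.73 to 1006) with the best 50% of each list and 30 (4.8 to 1243) with equal numbers of best peaks, both resting on 1 HoxB peak. These gene span comparisons of replicate 2 were also chosen after their values were seen.

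All 6 replicated regions of the HoxB window lay on the Hoxb1 side of the gene span, 28.5 to 236 kb beyond it. The 150 kb on the Hoxb13 side had no peak in either library. The strongest, chr11:96258902-96259698, scored 885.85 in replicate 1 (rank 31) and 1818.12 in replicate 2 (rank 15), and was number 14 of the 10274 replicated regions by summed rank. It was 29.3 kb from the span, and the strongest HoxC region was number 247 by the same measure. Its neighbour chr11:96258148-96258802, 0.825 kb away between midpoints, scored 51.52 and 51.08 and was among the weakest replicated regions of the genome (number 10266). The others were chr11:96282658-96283250 (64.10 and 118.39), chr11:96292941-96293989 (145.59 and 144.62), chr11:96365854-96366642 (53.29 and 281.75) and chr11:96465654-96466474 (420.47 and 118.24). Outside the gene spans there were 8 replicated regions in 0.58 Mb around HoxC and 6 in 0.52 Mb around HoxB.

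**Figure D4:**
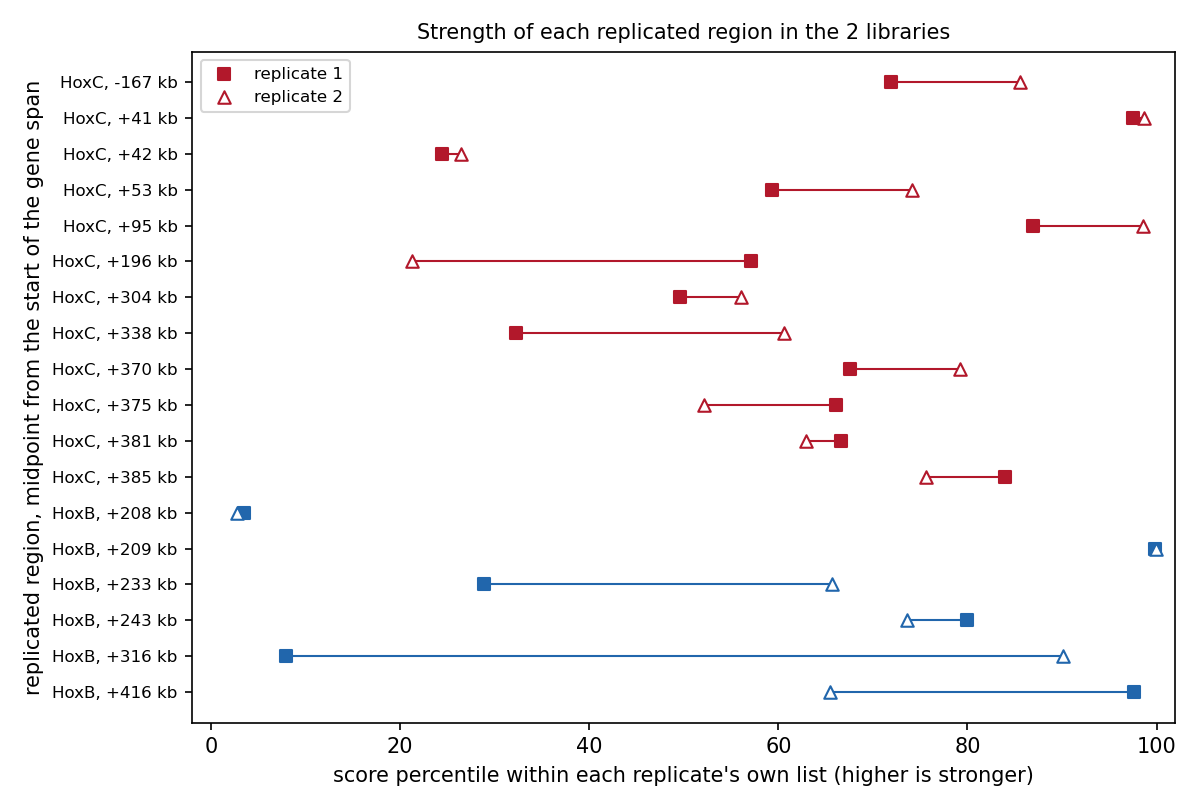
Score percentile of each of the 18 replicated regions within its own list (horizontal axis, higher is stronger), with filled squares for replicate 1 and open triangles for replicate 2, ordered by midpoint in kb from the start of the gene span. The libraries nearly coincide at the strongest HoxB region and differ most at the HoxB region 316 kb from the start of the span.

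How closely the libraries ranked these regions varied from region to region. Between replicate 1 and replicate 2 the score percentile differed by a median of 11.7 points over the 12 HoxC regions and 19.2 points over the 6 HoxB regions, and by 15.8 points over all 10145 autosomal regions. The widest gap was at the HoxB region chr11:96365854-96366642, at percentile 7.90 in replicate 1 and 90.1 in replicate 2, and only 0.453% of autosomal regions differed as much. The HoxB region chr11:96465654-96466474 went the other way, from percentile 97.6 in replicate 1 to 65.5 in replicate 2. Among HoxC regions the widest gap was at chr15:102945345-102946602, with percentiles of 57.1 and 21.3. Replicate 2 had the higher percentile in 8 of 12 HoxC regions and 3 of 6 HoxB regions, and in 6645 of the 10145 on autosomes. By summed rank the median HoxC region stood 50.1% and the median HoxB region 48.0% of the way down the list of replicated regions, against 49.9% on autosomes, so the median strength in both clusters was close to that of all replicated regions. Scores were not tested, since peaks of a library are not replicates. Replicate 1 peaks were the wider in 10 of 12 HoxC and 6 of 6 HoxB regions, and in 9372 of the 10145 on autosomes. The median width ratios were 1.33 for HoxC, 1.64 for HoxB and 1.46 over the autosomes.

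Peaks called in 1 library only were fewer in replicate 1 than in replicate 2, as they were on all autosomes (4388 of 14558 against 14190 of 24719). Around HoxC replicate 1 had 3 such peaks, scoring 59.8 to 63.4, and replicate 2 had 39, scoring 50.3 to 263. Around HoxB replicate 1 had 1, at 59.71, and replicate 2 had 10, scoring 50.6 to 217. Close to the window borders, a replicate 1 peak of score 59.75 lay 1.52 kb inside the lower HoxC border and a replicate 2 peak of score 51.40 lay 3.98 kb inside the upper one. The nearest peak outside that window, chr15:102488263-102488724, scored 52.42 in replicate 1. The nearest peak outside the HoxB window was 34.7 kb away and scored 53.89 in replicate 2. None of these 4 border peaks recurred.

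A further list deposited by the authors gives positions of 1 bp with no score. It had 13 positions around HoxC, at least 1 in each of the 12 replicated regions, and 5 around HoxB. On autosomes the list had 10496 positions, close in number to the 10145 replicated regions. The share of all replicated regions that hold a position was not computed, so these counts are no result about either cluster. The HoxB region without a position was the strongest one, chr11:96258902-96259698. Its weak neighbour chr11:96258148-96258802, 0.825 kb away between midpoints, held 1. RefSeq promoters (GRCm38.p6, 250 bases before to 50 after a gene's start) were at hand for 4 of the 19 Hox genes, Hoxb1, Hoxb4, Hoxb8 and Hoxc4. The bicoid-type motifs TAATCC and TAATCT, which homeodomain factors of the Pitx1 kind prefer, were in 0 of the 4 on either strand, against 7.06% and 8.19% of all 32851 promoters. The motif TTTAT, the core of posterior Hox sites, was in the Hoxb8 promoter alone of the 4 and in 40% of all promoters.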

How the data were processed

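Each ChIP library had its own deposited peak list, with MACS peak names numbered separately and a peak score by the authors' caller, which is used here for ranks and percentiles within a list. The submitters' processing notes name CASAVA 1.7 and 1.8.2, Bowtie 0.12.8, MACS 1.4.2, bedtools 2.16.2 and build mm9, with no roles. For the caller's settings and its control library, nothing is given in the sources used here. The lowest scores were 50 and 50.01.

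From these lists, shared peaks (1 bp or more) were joined into replicated regions. Windows and gene spans were set from approximate mm9 positions, and coordinates count from 1. Every replicated region of both windows is named, and peaks of 1 library are given by counts, range and the strongest. The chromosome length up to the last peak, 2468 Mb over 19 autosomes, served as the denominator. Counts were compared by exact conditional binomial tests and shares by Fisher's exact test, two-sided, with Benjamini-Hochberg adjustment over 19 tests, of which 8 were added after values were seen. For an alternative, adjustment ran over the tests of that alternative. Peaks are not replicates and cluster along the genome, so intervals and p-values cover counting error only and are too small or narrow. For background, autosomes were cut into tiles of the same length. The windows and lists were chosen with earlier results of these data known. The code was tested on simulated lists. Tools were Python 3.11.15 with scipy 1.17.1, numpy 2.4.6, pandas 2.3.3 and, for plots, matplotlib 3.10.9.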

Additional observations from a re-analysis of the deposited data

How the results depend on the processing

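No paired analysis was possible because peak lists exist for the ChIP group alone, and replicate numbers are shared with input. Of 163 values recomputed under alternatives, 144 kept their direction and side of the threshold, or stayed within 1.5 times for a count. Some of these could not change, such as gene span counts when only the window borders moved. Leaving out replicate 1 or 2 in turn gave 15 to 52 peaks in the HoxC window, 7 to 16 in the HoxB window, 4 to 27 in the HoxC gene span and 0 to 6 in the HoxB gene span. The HoxC to HoxB ratio was then 2.14 to 3.25, the HoxB density ratio 1.7 to 2.28, the HoxC span to flank ratio 1.76 to 5.22 and the HoxB one 0 to 1.73, each past the threshold without replicate 1 except the last. With the best 50% of each list the HoxB window held 3 regions. With borders moved inward by 100 kb the HoxC window held 7. The recurring share of replicate 2 peaks around HoxC missed the threshold at -14.2 points with the best 50%, -16.7 with reciprocal overlap and -14.8 with borders moved outward, and in the HoxC gene span, where the difference of -27.8 from other autosomal peaks follows from the peak counts, at -26.2 and -19.2 with the first 2 of these. Around HoxB this difference turned to 12.9 points with equal numbers of best peaks, without passing. The odds of 3.98 for the HoxC gene span in replicate 2 over replicate 1 were 3.14 with the best 50%. The replicate 2 excess in the HoxB gene span was 1.11 with the best 50% and 0.94, below 1, with equal numbers. The cause of these changes was not tested. Alternatives to the gene span borders, and those for replicate 2 in the gene spans, were chosen after seeing the data. Recurring shares could not be computed with 1 library or with the list of positions. Since read depth is unknown, a peak missing from 1 library may lie under its threshold.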
